A study of Mus musculus with 7 samples.

Results

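The genes described here are 9 α subunits of heterotrimeric G proteins, *Gna12*, *Gna13*, *Gnaq*, *Gna11*, *Gna14*, *Gnas*, *Gnai1*, *Gnai2* and *Gnai3*, out of 23347 genes in the liver count table. *Gna12* was chosen by its counts, which were far lower in one genotype group, and the other 8 were added by family name, so the question is whether its relatives share that fall. The livers came from male mice of C57BL/6 background, put as young adults on CDAHFD, a fat-rich feed of defined amino acids that lacks choline, and kept on it for 15 weeks, a regimen that brings on steatohepatitis. The control group was 4 littermates with both *B4galt1* alleles floxed and no Cre (*B4galt1* flox/flox, called WT in the sample labels). The other group was 3 mice labelled *B4galt1* hep-/-, in which Cre driven by the albumin promoter is meant to delete floxed *B4galt1* in hepatocytes. *B4galt1* encodes a galactosyltransferase of the Golgi. Every mouse gave 1 RNA library of whole liver, and chow-fed livers were not analysed here.

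Heterotrimeric G proteins carry signals from 7-transmembrane receptors into the cell. A receptor bound by its ligand makes the α subunit exchange GDP for GTP and leave the βγ dimer, and both parts then act on effectors until the α subunit hydrolyses its GTP. The α subunits fall into 4 classes by effector. The G12 class (*Gna12*, *Gna13*) turns on guanine nucleotide exchange factors of the small GTPase RhoA, and the Gq class (*Gnaq*, *Gna11*, *Gna14*) activates phospholipase Cβ. The Gs protein (*Gnas*) stimulates adenylyl cyclase and the Gi class (*Gnai1*, *Gnai2*, *Gnai3*) inhibits it. In hepatocytes glucagon and adrenergic signals pass through Gs and Gq to glycogen breakdown and gluconeogenesis.

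Control libraries held 37838654 to 39668509 counts, and libraries labelled *B4galt1* hep-/- held 30608271 to 34586588. Mitochondrially encoded transcripts took 3.88% to 8% of the counts in the first group and 14.4% to 22.6% in the second. *B4galt1* was at 48.7 to 53.0 CPM (counts scaled to a common library size after TMM normalization) in *B4galt1* flox/flox livers and at 28.4, 23.9 and 53.7 CPM in replicates 1 to 3 labelled *B4galt1* hep-/-. The log2 fold change of -0.52 ± 0.26 (SE) missed the threshold (edgeR adjusted p = 0.181), and without replicates 1, 2 and 3 of the second group in turn it was -0.40, -0.30 and -0.96 (edgeR adjusted p = 0.368, 0.461 and 0.0139). Replicate 3 did not show a lower *B4galt1* level in these counts of the whole gene. Whether the floxed segment was deleted was not examined, so each direction below is that of the libraries carrying the label. The tissue label held, with 9 hepatocyte markers summing to 92950 to 133800 CPM and to 102300 to 162900 CPM and none of them called by edgeR (3 had an unadjusted p under 0.05, and DESeq2 called 2). Of 8 Kupffer cell and macrophage markers, 4 were called lower and none higher, where 7.83% of all genes tested were called lower and 8% higher. At an unadjusted p under 0.05, 6 were lower and none higher, and DESeq2 also called 6 lower and none higher. All 8 markers had log2 fold changes below 0, with a median of -1.12. Their sum was 432 to 816 CPM in *B4galt1* flox/flox livers and 264 to 312 CPM in the others, and the part of this difference in the values below was not tested. Control replicate 3 stood apart, with the highest macrophage sum and 397 CPM of endothelial markers against 97.8 to 146 CPM in the other controls. Of the 9 α subunit genes, *Gna12*, *Gna13*, *Gnaq*, *Gna14*, *Gnai1*, *Gnai2* and *Gnai3* were higher in that liver than in the other controls. Without it the log2 fold change was -2.99 for *Gna12* and -0.46 for *Gna13*, and the part of these markers in the values was not tested.

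*Gna12* (NCBI gene 14673, on chromosome 5) was at 55.9, 59.1, 63.3 and 32.5 CPM in *B4galt1* flox/flox replicates 1 to 4. In livers labelled *B4galt1* hep-/- it was at 7.08, 4.58 and 6.97 CPM in replicates 1 to 3. Every liver of the second group lay far below every control liver, and control replicate 4 stood nearer to them than the other 3 controls did. The means were 52.7 ± 13.8 CPM (SD, n = 4) and 6.21 ± 1.41 CPM (SD, n = 3), an 8.48-fold difference, with a fitted log2 fold change of -3.09. These values were what selected the gene, so they are a description and no test is given. Replicate 3, in which *B4galt1* was not lower, had as little *Gna12* as replicate 1. In whole-liver RNA, fewer cells of a type and less RNA per cell cannot be told apart. No annotated gene overlapped *Gna12* in RefSeq (GRCm38.p6).

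**Figure D1:**
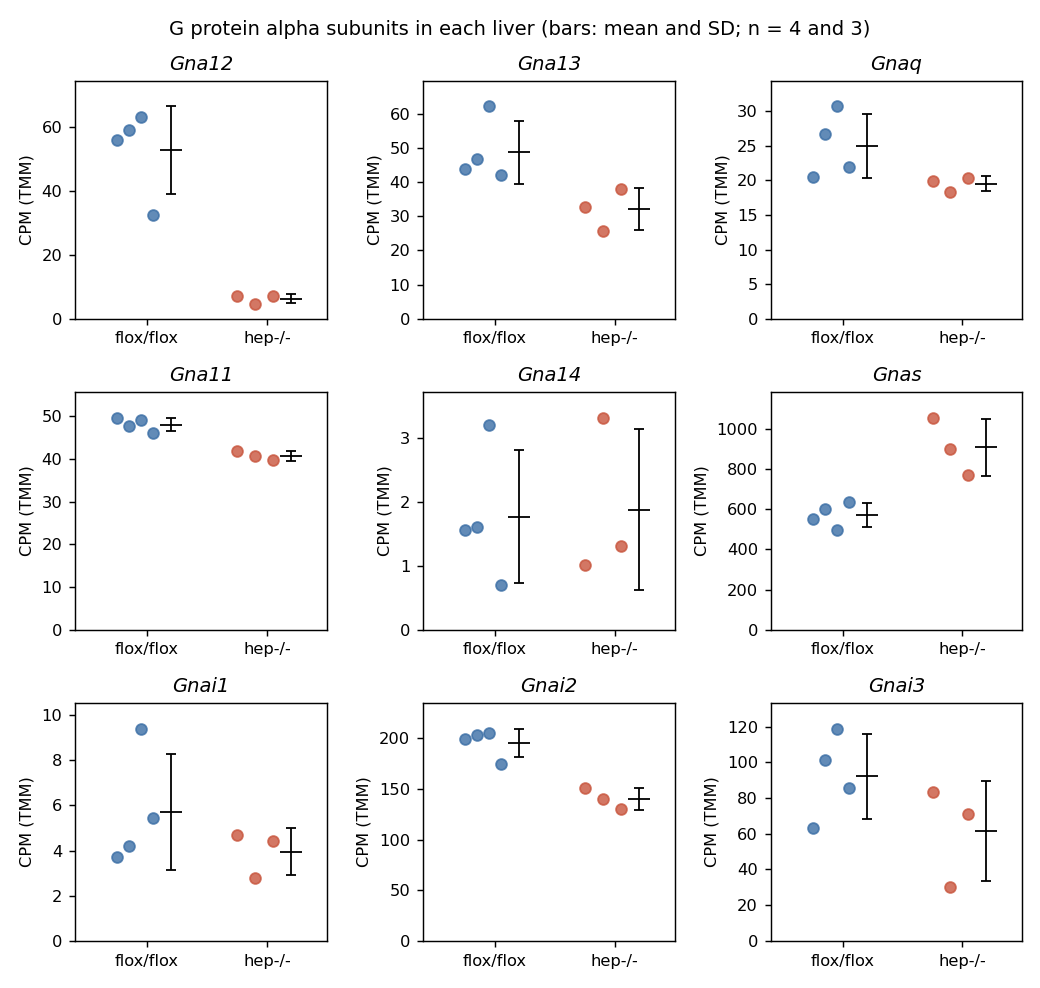
TMM-normalized CPM of the 9 α subunit genes in each liver, with *B4galt1* flox/flox mice in blue and mice labelled hep-/- in red, black bars giving the mean and SD (n = 4 and 3) and each vertical axis starting at 0. As a ratio the 2 groups lie furthest apart for *Gna12*, at 32.5 to 63.3 against 4.58 to 7.08 CPM, and *Gnas* is the gene whose red points all lie above the blue ones.

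*Gna13* (NCBI gene 14674, on chromosome 11) is the other member of the G12 class and the closest relative of *Gna12*. It was at 44.0, 46.7, 62.2 and 42.0 CPM in the *B4galt1* flox/flox livers and at 32.8, 25.8 and 37.99 CPM in the livers labelled *B4galt1* hep-/-. Each of these 3 values was below each control, although the gap between 37.99 and 42.0 CPM was small. The log2 fold change was -0.60 (95% interval -1.05 to -0.15, adjusted p = 0.0698, by the quasi-likelihood test of edgeR and Benjamini-Hochberg adjustment over every gene tested). The threshold was an adjusted p under 0.05 together with an absolute log2 fold change over 0.58, and *Gna13* did not pass it. The whole interval lay above the fitted value of *Gna12*, which was picked for its low counts in these same livers, so this is a description. The interval reaches down to 0.482 of the control level for *Gna13*, whereas the ratio of the *Gna12* means was 0.118.

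The promoter sequences of this pair are shown because the 2 genes make up 1 class and the groups lay so much further apart for one than for the other. Each runs from 250 bases before to 50 bases after the RefSeq start site in GRCm38.p6 and is written 5′ to 3′ on the gene's own strand, *Gna12* being chr5:140830382-140830681 on the minus strand and *Gna13* chr11:109362544-109362843 on the plus strand. The counts were made on another build according to the processing notes (GRCm39). Capitals mark matches on either strand to the GC box GGGCGG, to CCAAT and to the E-box CACGTG.
Gna12: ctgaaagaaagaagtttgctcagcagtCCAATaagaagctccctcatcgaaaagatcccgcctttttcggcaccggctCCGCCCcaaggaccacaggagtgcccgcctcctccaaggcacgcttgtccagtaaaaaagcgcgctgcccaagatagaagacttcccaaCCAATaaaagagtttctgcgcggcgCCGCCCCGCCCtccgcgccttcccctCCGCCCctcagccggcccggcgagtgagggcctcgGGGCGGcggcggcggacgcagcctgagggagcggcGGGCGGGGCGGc
Gna13: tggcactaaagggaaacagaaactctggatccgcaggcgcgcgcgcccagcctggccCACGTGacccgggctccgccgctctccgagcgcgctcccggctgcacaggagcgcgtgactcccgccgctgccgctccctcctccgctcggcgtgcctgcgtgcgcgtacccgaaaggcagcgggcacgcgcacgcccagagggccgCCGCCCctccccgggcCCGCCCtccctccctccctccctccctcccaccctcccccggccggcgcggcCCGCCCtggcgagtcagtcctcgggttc
The *Gna12* window held 7 GC boxes, some of them overlapping, 2 CCAAT matches and no E-box. The *Gna13* window held 3 GC boxes, no CCAAT and 1 E-box. Among 32851 promoter windows of the same length, 35.7% held a GC box, 37.4% CCAAT and 7.15% the E-box. Both windows were rich in CpG, with 30 and 40 CpG dinucleotides against a median of 7. Such matches describe the letters and say nothing of whether a factor binds there.

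The Gq class was less far apart between the groups. *Gna11* (NCBI gene 14672), which with *Gnaq* carries most hormone signals to phospholipase C, varied little. It was at 49.5, 47.6, 49.2 and 46.0 CPM in *B4galt1* flox/flox livers and at 42.0, 40.6 and 39.6 CPM in the others, without overlap. Its log2 fold change was nevertheless small at -0.24 (95% interval -0.58 to 0.11, adjusted p = 0.315 from edgeR). *Gnaq* (NCBI gene 14682) was at 20.6, 26.8, 30.7 and 21.9 CPM against 19.97, 18.3 and 20.4 CPM. Its highest value in the second group was just under the lowest control, and the log2 fold change was -0.36 (95% interval -0.78 to 0.07, adjusted p = 0.221 from edgeR). *Gna14* (NCBI gene 14675) was close to silent, at 0.71 to 3.21 CPM in controls and 1.006 to 3.32 CPM in the others. The interval of its log2 fold change, -1.118 to 1.288 around 0.085, included 0 and reached far to both sides, and the sign turned when control replicate 4 (-0.18) or replicate 2 labelled *B4galt1* hep-/- (-0.61) was left out.

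*Gnas*, the most abundant of the 9 in counts, lay in the opposite direction. Its transcripts encode Gαs, which couples the glucagon receptor to cyclic AMP, and the locus (NCBI gene 14683, on chromosome 2) also gives other products from upstream start sites. It was at 551, 601, 498 and 635 CPM in *B4galt1* flox/flox livers and at 1055, 899 and 770 CPM in livers labelled *B4galt1* hep-/-. Each of the latter exceeded each control. The log2 fold change was 0.67 (95% interval 0.219 to 1.117, adjusted p = 0.0472 from edgeR), a 1.59-fold difference of the means, and *Gnas* was the only relative of *Gna12* that was called. The call was narrow. The adjusted p, from the same edgeR test, was 0.0901, 0.114, 0.115 and 0.0683 without control replicates 1 to 4 and 0.153 and 0.0716 without replicates 1 and 2 labelled *B4galt1* hep-/-, whereas leaving out replicate 3 kept the call. The log2 fold change stayed between 0.53 and 0.77 over all alternatives. RefSeq places an antisense gene, *Gnasas1*, over this locus, and since no source used here states a strand setting, its reads cannot be told from those of *Gnas*.

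The Gi class was lower on average without being called by edgeR. *Gnai2* (NCBI gene 14678), the main Gi α subunit of blood cells and also expressed widely elsewhere, was at 199, 203, 205 and 175 CPM in *B4galt1* flox/flox livers. Replicates 1 to 3 of the other group gave 151, 140 and 130 CPM, all below the controls, and the log2 fold change was -0.48 (95% interval -0.87 to -0.09, adjusted p = 0.0865 from edgeR). In DESeq2 the adjusted p was 0.0468 at a log2 fold change of -0.48, which missed the fold threshold. The sum of the macrophage markers was also lower in each of these 3 livers than in each control, and its part in the *Gnai2* values was not tested. *Gnai3* (NCBI gene 14679) ranged from 63.0 to 119 CPM in controls and was at 83.4, 30.0 and 71.2 CPM in the others, so the groups overlapped (log2 fold change -0.58, adjusted p = 0.234 from edgeR). Without replicate 2 of the latter its log2 fold change was -0.26, and without replicate 1 it was -0.88. *Gnai1* (NCBI gene 14677) was low in every liver, at 3.73 to 9.39 CPM in controls and 2.78 to 4.68 CPM in the others, and its log2 fold change of -0.53 had an interval from -1.31 to 0.26 and went to -0.18 without control replicate 3 and to -0.33 without replicate 2 labelled *B4galt1* hep-/-.

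Of the 8 relatives of *Gna12*, edgeR called none lower and 1 higher, where 7.83% of all 15179 genes tested were called lower and 8% higher. In simulated counts the same test called 14% of genes with a true log2 fold change of -1. The lack of a call thus says little about decreases of that size or smaller. At an unadjusted p under 0.05, 2 relatives were lower (*Gna13* and *Gnai2*) and 1 was higher, and DESeq2, which called 6.82% of 22960 genes lower and 7.47% higher, also called none lower and *Gnas* higher. With limma on log2(FPKM + 1) after an FPKM minimum of 1 in 3 mice, 2 of the 7 relatives tested, *Gna13* (-0.62) and *Gnai2* (-0.60), were called lower and *Gnas* was not called, where 15.9% of all 10914 genes in that fit were called lower and 5.14% higher. The direction was below 0 for 6 of the 8, against 48.7% of all genes tested. The groups did not overlap for 4 relatives that were lower (*Gna13*, *Gna11*, *Gnaq* and *Gnai2*), as for 15% of all genes tested, and for *Gnas*, which was higher, as for 13.6% of all genes. The median log2 fold change of the 8 was -0.42, and that of all genes tested was 0.02. No lower bound of their intervals went beyond -1.31. The fitted value of *Gna12*, -3.09, was lower, but the gene was picked for its low counts in these same livers. Setting it beside the intervals is a description, and no difference between the genes was tested.

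**Figure D2:**
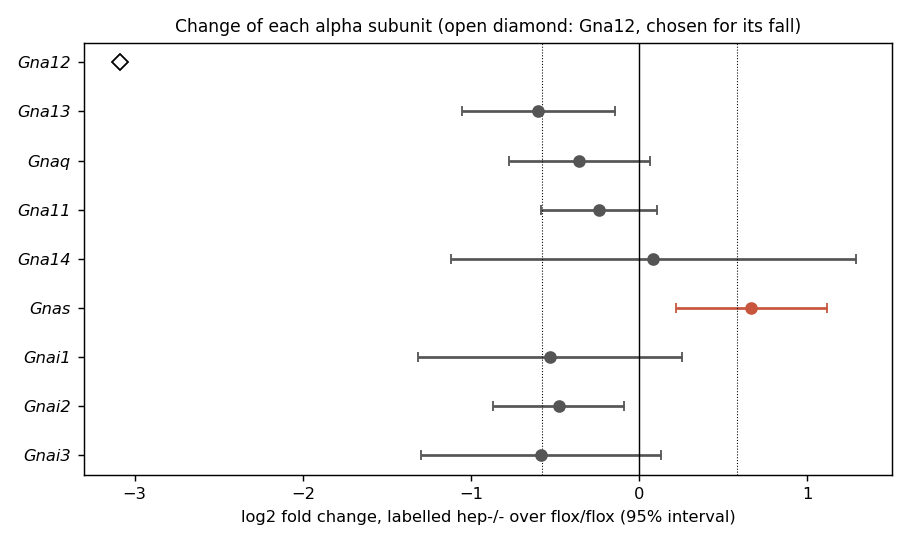
Log2 fold change (livers labelled hep-/- over *B4galt1* flox/flox livers) of each α subunit, with 95% intervals from edgeR as bars for the 8 relatives, dotted lines at the fold threshold and red for a call. *Gna12*, drawn as an open diamond without an interval because it was chosen for its fall, sits at -3.09, left of all intervals, of which *Gnai1* has the lowest bound at -1.31 and *Gnas* lies wholly above 0.

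To compare genes with each other, levels were taken per length as the deposited FPKM. The orders and shares thus rest on the gene lengths behind the deposited values, which were not examined. In counts *Gnas* was above *Gnai2* in the control livers (means of 571 and 195 CPM). In *B4galt1* flox/flox livers *Gnai2* came first at 93.1 ± 13.1 FPKM (SD, n = 4), followed by *Gnas* at 71.4 ± 4.66 FPKM, and the ranges of these 2 genes overlapped. *Gna12* came next at 29.5 ± 9.10 FPKM and could not be separated from *Gnai3* at 29.2 ± 7.68 FPKM. Then followed *Gna11* (14.8 ± 1.75 FPKM), *Gna13* (7.88 ± 1.82 FPKM), *Gnaq* (3.80 ± 0.793 FPKM) and *Gnai1* (1.86 ± 0.887 FPKM), of which only *Gnaq* and *Gnai1* had overlapping ranges. *Gna12* in control replicate 4 (16.2 FPKM) fell within the range of *Gna11* (12.7 to 16.7 FPKM), though above *Gna11* in the same liver. *Gna14* came last at 0.315 ± 0.195 FPKM. The order shows *Gna12* as the main G12 class transcript of the control livers and at rank 3 or 4 among the 9.

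In livers labelled *B4galt1* hep-/- the order was different. *Gnas* was first at 105 ± 20.1 FPKM (SD, n = 3) and *Gnai2* second at 61.2 ± 8.55 FPKM, without overlap. *Gna12*, at 3.10 ± 0.405 FPKM, had rank 6 in 2 livers and rank 7 in the other, below *Gna13* (4.70 ± 0.433 FPKM) in each liver, and its range of 2.64 to 3.40 FPKM overlapped that of *Gnaq* (2.61 to 2.89 FPKM) through replicate 2. The ratio of *Gna12* to *Gna13* was 4.36, 4.35, 3.50 and 2.66 in the control livers and 0.741, 0.611 and 0.631 in the others. *Gna12* thus gave 78.3% ± 4.08 (SD, n = 4) of G12 class FPKM in one group and 39.7% ± 2.50 (SD, n = 3) in the other. The summed FPKM of the class went from 37.4 ± 10.6 to 7.80 ± 0.752, and the FPKM of *Gna13* was lower, not higher, in each of the 3 livers than in each control.

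As a share of the FPKM summed over all 16 α subunit genes, *Gna12* was at 11.2% ± 2.56 (SD, n = 4) and 1.503% ± 0.328 (SD, n = 3). A share within a library does not depend on the library total. *Gnas* took 28.0% ± 3.99 in control livers and 49.7% ± 3.33 in the others, and the Gi class 48.0% ± 2.31 and 38.2% ± 2.56. With *Gnas* in the sum the Gq class kept close values, 7.32% ± 0.257 and 6.96% ± 0.695. A share falls when another rises. With *Gnas* left out of the sum, *Gna12* was still at 15.5% ± 2.93 against 2.97% ± 0.465, while *Gna13* was at 4.203% ± 0.455 and 4.51% ± 0.757 and *Gnai2* at 50.02% ± 2.44 and 58.2% ± 5.65. In that sum *Gna11* was at 7.99% ± 0.713 and 10.96% ± 1.106 and *Gnaq* at 2.03% ± 0.215 and 2.59% ± 0.209, both higher in the second group without overlap.

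**Figure D3:**
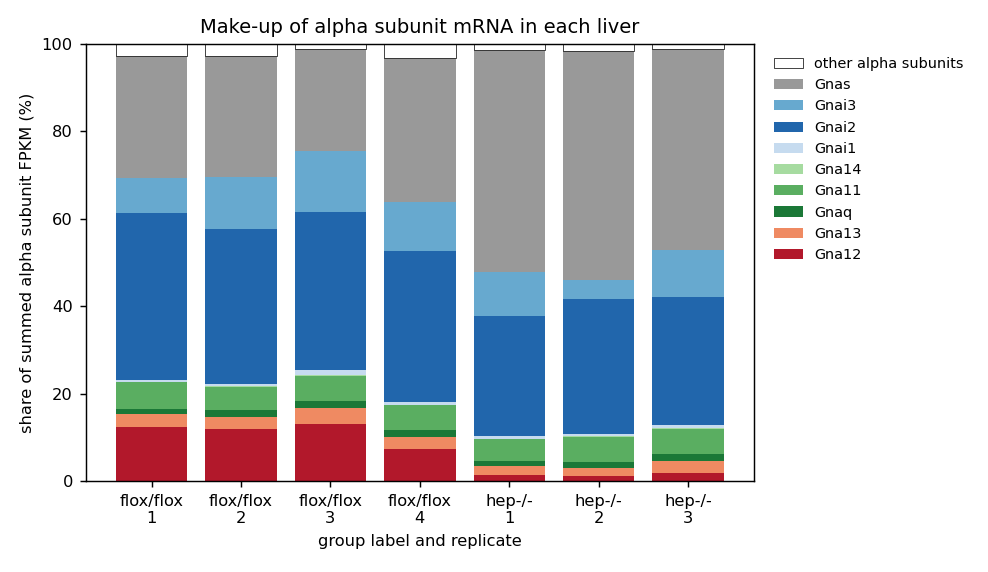
Share of each α subunit gene in the summed FPKM of all 16 α subunit genes (vertical axis, percent) for each liver, by group label and replicate. The dark red band of *Gna12* narrows from 7.44% or more in the control livers to 1.83% or less in the livers labelled hep-/-, and the grey band of *Gnas* widens from at most 33.0% to at least 46.0%.

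The remaining 7 α subunit genes are those of sensory or blood cells and of neurons. Of the 4 with enough counts to be tested, none was called by edgeR, and at an unadjusted p under 0.05 *Gnat1*, the transducin of rod cells, was lower. It was at 12.4, 14.6, 3.63 and 14.8 CPM in controls and at 5.75, 4.98 and 4.05 CPM in the others, so that control replicate 3 overlapped with them (log2 fold change -1.20, adjusted p = 0.0656 from edgeR), and DESeq2 called it lower. None of 4 β subunits and none of 7 γ subunits tested was called by edgeR or DESeq2, with 0 and 1 genes at an unadjusted p under 0.05, and the most abundant, *Gnb2* and *Gng5*, had log2 fold changes of 0.09 (95% interval -0.30 to 0.49) and 0.39 (95% interval -0.06 to 0.84). Among chaperones and GoLoco proteins, which fold α subunits or hold them in the GDP form, *Ric8a*, the chaperone of the G12, Gq and Gi classes, had a log2 fold change of -0.11 (95% interval -0.50 to 0.28), and *Gpsm1* was called higher (1.38, adjusted p = 0.0327 from edgeR). *Gpsm1* lost its call without control replicate 2, 3 or 4 or replicate 2 labelled *B4galt1* hep-/-, with adjusted p from 0.0641 to 0.159 and a log2 fold change of 0.83 without the last of these.

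Over all 111 tested partners, regulators, effectors and receptors that are not among the 9 genes, 5 (4.50%) were called lower and 12 (10.8%) higher, close to the 7.83% and 8% of all genes tested. In the G12 pathway edgeR called 1 of 11 effectors lower and none higher. At an unadjusted p under 0.05 and by DESeq2 the counts were 1 lower (*Rhoa*) and 1 higher, DESeq2 calling *Arhgef1*, a RhoA exchange factor, higher. *Rhoa*, the GTPase at the end of this pathway, was at 162, 207, 248 and 199 CPM in control livers and at 130, 81.5 and 119 CPM in the others, without overlap. The log2 fold change was -0.89 ± 0.23 (SE, edgeR adjusted p = 0.0252), and the call was lost without control replicate 2 or 3 or replicate 2 labelled *B4galt1* hep-/- (adjusted p from 0.0621 to 0.0677). Of 12 receptors that can couple to the G12 class, 2 were called lower and 1 higher. The sphingosine 1-phosphate receptor *S1pr2* was at 12.1, 10.3, 11.5 and 9.13 CPM against 4.16, 4.37 and 5.76 CPM, or -1.18 ± 0.23 (SE) on the log2 scale (edgeR adjusted p = 0.00938), and it was called under all 17 alternatives. *F2r*, the thrombin receptor PAR1, was at 42.0, 41.4, 59.2 and 29.8 CPM against 16.2, 18.6 and 27.1 CPM, or -1.06 on the log2 scale (edgeR adjusted p = 0.0210). It lost the call without control replicate 2 or replicate 1 or 2 labelled *B4galt1* hep-/- (adjusted p from 0.0520 to 0.0590). The lysophosphatidic acid receptor *Lpar6* was called higher, at 16.1 to 31.3 CPM in controls and 43.5 to 57.5 CPM in the others, and lost the call without control replicate 2 (adjusted p = 0.0620 from edgeR).

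In the Gs and Gi pathway, edgeR called 1 of 17 effectors higher and 1 lower, where 8% and 7.83% of all genes were called. At an unadjusted p under 0.05 there were 3 higher and 3 lower, and DESeq2 called 3 higher (*Adcy1*, *Adcy4* and *Rapgef3*) and 1 lower (*Adcy3*). *Adcy1*, an adenylyl cyclase best known from neurons, was at 0.25, 0.75, 0.33 and 0.40 CPM in control livers and at 4.22, 4.37 and 7.11 CPM in the others. The log2 fold change was 3.59 ± 0.44 (SE, edgeR adjusted p = 0.00219), and it kept its call whichever mouse was left out. *Adcy3* was called lower (-0.96, adjusted p = 0.0498 from edgeR), a call lost without any mouse but control replicate 4, with adjusted p from 0.0604 to 0.119. Of 17 hormone receptors of other classes, 2 were called higher and 1 lower. *Adra1b*, the α1-adrenergic receptor of the Gq class, was at 12.1 to 16.4 CPM in controls and 26.3 to 36.7 CPM in the others, or 1.16 on the log2 scale (edgeR adjusted p = 0.00539). The most abundant effector, *Rapgef4*, a cyclic AMP sensor, was at 0.10 on the log2 scale (95% interval -0.30 to 0.50). The glucagon receptor *Gcgr*, the most abundant receptor, had a log2 fold change of 0.41 (95% interval -0.12 to 0.93) and was not called. The adenosine receptor *Adora1* was called lower (-1.02, adjusted p = 0.0320 from edgeR), a call lost without control replicate 1, 2 or 4 or replicate 1 or 2 labelled *B4galt1* hep-/-, with adjusted p from 0.0549 to 0.0965.

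**Figure D4:**
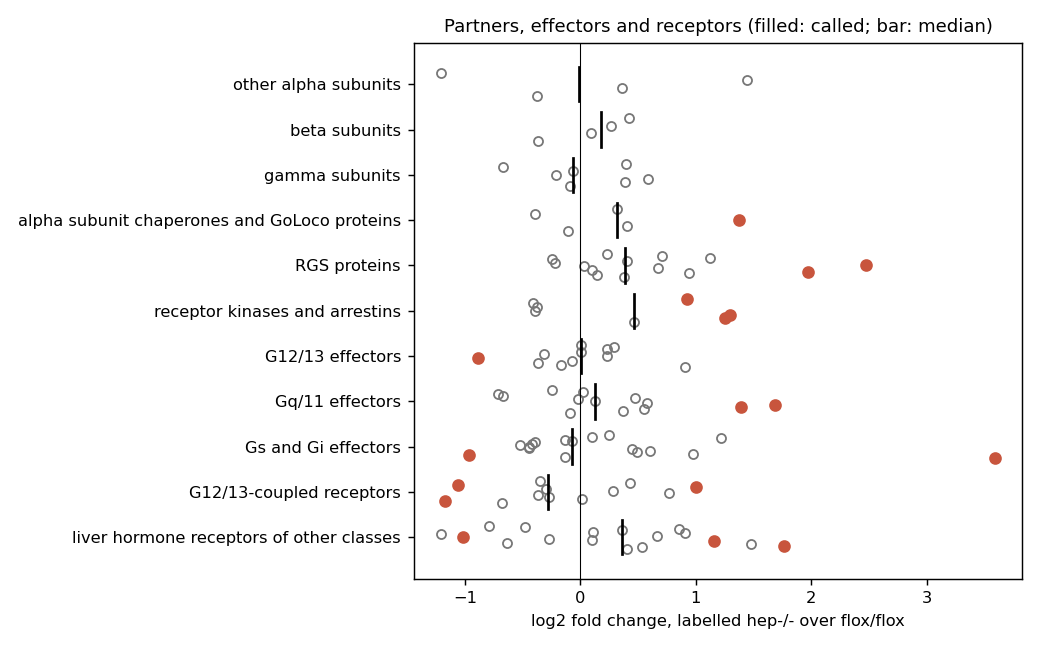
Log2 fold change (livers labelled hep-/- over *B4galt1* flox/flox livers) of each tested gene in 11 lists of G protein partners, regulators, effectors and receptors, filled where the gene was called and with a bar at the list median. The medians run from -0.28 for receptors of the G12 class to 0.46 for receptor kinases and arrestins, and no gene lies as far to the left as *Gna12* at -3.09.

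Receptor kinases and arrestins switch off receptors. Of 7 receptor kinases and arrestins, 3 were called higher and none lower (0 lower at an unadjusted p under 0.05 and 0 by DESeq2), with a median log2 fold change of 0.46 against 0.02 over all genes tested, of which 8% were called higher. *Arrb2*, β-arrestin 2, was at 42.9, 32.8, 31.7 and 35.7 CPM against 58.7, 88.2 and 56.9 CPM, or 0.93 ± 0.21 (SE) on the log2 scale (edgeR adjusted p = 0.0148), and lost the call without control replicate 2 (adjusted p = 0.0614). *Grk3* averaged 19.7 CPM (SD 8.98, n = 4) in controls and 46.99 CPM (SD 12.2, n = 3) in the others (1.26 on the log2 scale, edgeR adjusted p = 0.0316), with the call lost without control replicate 2 or replicate 1 or 2 labelled *B4galt1* hep-/- (adjusted p from 0.0506 to 0.0983 from edgeR). The third gene, *Grk4*, was near 1 CPM in controls and kept its call when replicate 1 labelled *B4galt1* hep-/- was left out and lost it without any other mouse (edgeR adjusted p from 0.0735 to 0.198). The most abundant kinase, *Grk2*, was at 0.46 (95% interval 0.06 to 0.86, edgeR adjusted p = 0.105). Of 14 RGS proteins, which speed up GTP hydrolysis by α subunits, *Rgs4* and *Rgs11* were called higher and none lower (0 lower at an unadjusted p under 0.05 and 0 by DESeq2). Both were scarce, and DESeq2 called *Rgs4* and *Rgs3* and not *Rgs11*. *Rgs11* was at 2.63, 15.1 and 1.48 CPM in the livers labelled *B4galt1* hep-/-, and without replicate 2 its log2 fold change went from 2.48 to 0.84 (adjusted p = 0.442 from edgeR). *Rgs4* (1.98, adjusted p = 0.0305 from edgeR) kept its call without that replicate and lost it without any other mouse, with adjusted p from 0.0506 to 0.138 and a log2 fold change of 1.29 without replicate 3 of the same group. *Rgs11* also lost its call without control replicate 2, 3 or 4 (adjusted p from 0.107 to 0.120). The most abundant RGS gene, *Rgs16*, ranged widely, with means of 60.9 CPM (SD 33.9, n = 4) and 51.4 CPM (SD 10.5, n = 3). Of 13 Gq effectors, *Plcb4* and *Arhgef25* were called higher and none lower, where 2 genes were lower at an unadjusted p under 0.05 and DESeq2 called 0 lower. *Plcb4* (1.39, adjusted p = 0.0182 from edgeR) lost its call without control replicate 2 or replicate 2 labelled *B4galt1* hep-/-, with adjusted p of 0.0617 and 0.0784 and a log2 fold change of 0.88 without the latter. *Arhgef25* (1.68, adjusted p = 0.0376 from edgeR) lost it without control replicate 2, 3 or 4 or replicate 2 of the other group, with adjusted p from 0.0850 to 0.220, and its log2 fold change was 0.82 without the last of these. The most abundant gene of this list, *Prkcd*, was at 0.03 (95% interval -0.43 to 0.49). *Arrb2*, *Grk3*, *Grk4*, *Rgs11*, *Plcb4*, *Arhgef25* and *Gpsm1* were all highest in replicate 2 labelled *B4galt1* hep-/-, and *Rgs4* in replicate 3. Replicate 2 also had the highest sum of cholangiocyte markers, 874 CPM against 415 and 259 CPM in replicates 1 and 3 and 254 to 658 CPM in controls. The part of these markers in the values was not tested.

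Likeness to *Gna12* over the 7 livers was taken as Pearson's r of log2 CPM. Genes needed a mean of at least 5 CPM, and predicted genes with Gm or Rik names were left out. The genes most like *Gna12* were *Igf2r* (r = 0.999), *Axin1* (0.995), *Lonp1* (0.993), *Tbcd* (0.993) and *Afg3l1* (0.992). These r rest on 7 points that fall into 2 groups and share their libraries, and they are a description. For deviations from the group means, the r of these 5 genes ran from 0.864 to 0.974, over the same livers that selected them. The difference of *Igf2r*, the mannose 6-phosphate receptor, was much smaller, at 60.98, 59.8, 63.4 and 53.2 CPM against 37.6, 33.0 and 36.5 CPM. None of the 5 differed by as much as *Gna12*, their log2 fold changes running from -0.97 to -0.64. Among 9972 genes ranked this way, *Gna11* was at rank 108 (r = 0.97), *Gnai2* at 156 (0.96), *Gna13* at 1013 (0.88), *Gnaq* at 2044 (0.76), *Gnai3* at 2815 (0.65) and *Gnas* near the end at 9604 (-0.92), and *Gna14* and *Gnai1* were below the minimum of 5 CPM. Within the groups the order was another, with r of 0.74 for *Gna13*, 0.66 for *Gnai2*, 0.62 for *Gna11*, 0.59 for *Gnaq*, 0.58 for *Gnai3* and -0.38 for *Gnas*.

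The protein-coding genes next to *Gna12* on chromosome 5 (order taken from RefSeq, GRCm38.p6) were compared next, and of those named here edgeR called none lower (1 had an unadjusted p under 0.05). On one side, *Amz1*, *Brat1* and *Iqce* had log2 fold changes of -0.01, 0.07 and 0.05, with lower bounds of their 95% intervals at -0.65, -0.39 and -0.72. On the other side, *Foxk1* was at -0.57 (95% interval -1.05 to -0.09, adjusted p = 0.0936 from edgeR). *Ap5z1* was called higher, at 9.64 to 17.1 CPM in controls and 18.8 to 32.9 CPM in the others, or 0.998 on the log2 scale (edgeR adjusted p = 0.0259).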

How the data were processed

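RNA from 7 livers was analysed, 4 *B4galt1* flox/flox and 3 labelled *B4galt1* hep-/-. RNA was extracted with TRIzol and libraries were made with a VAHTS Universal V6 kit. The authors deposited read counts for each gene and liver without normalization. The FPKM values used for levels per length were computed and deposited by the authors too. The submitters' processing notes name fastp, HISAT2, HTSeq and GRCm39. The annotation and the strand setting are not given in the sources used here. That each library comes from its own mouse rests on the labels, and no 2 libraries of the 21 pairs agreed within sampling noise (chi-square of at least 60.3 per gene).

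Of 23347 genes, 15179 passed filterByExpr (minimum count 10, minimum total 15). After TMM normalization the groups were compared in edgeR 4.0.16 (R 4.3.3) by the quasi-likelihood F-test with no covariate, and p-values were adjusted after Benjamini and Hochberg over these genes. A call needed an adjusted p under 0.05 plus an absolute log2 fold change over 0.58, the thresholds of the study, which used DESeq2. Standard errors and 95% intervals came from the F statistic. A level of 3 counts equals 0.069 to 0.0987 CPM, counting error only. The alternatives comprised normalization by RLE or upper quartile, DESeq2 1.42.0, 2 other filters, limma 3.58.1 with FPKM on the log2 scale at a pseudocount of 1 or 0.1, no mitochondrially encoded genes, no fold threshold, the replicate number as a block, and each mouse left out. A pseudocount understates the change of low genes. The edgeR test was tested on simulated counts with known changes. It called 96% of genes with a true log2 fold change of -2 and 98% at 2. At -1 it called 14% and at 1 it called 32%, with 5 false calls.

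The 9 genes, the lists and the tests were chosen with earlier results of these data known. The text names the 9 genes, *B4galt1*, of each pathway list the called genes (up to 4 by size of change, at a mean of at least 1 CPM) and the most abundant gene, the 5 genes most like *Gna12* and its 3 tested neighbours on either side, except for some genes that are not reported here. Promoter sequences are from RefSeq (GRCm38.p6), which had windows for 8 of the 9 genes. Of 6 marker lists, endothelial markers had 1 of 8 called lower and none higher, and stellate cell (7 genes), cholangiocyte (6) and leukocyte (6) markers had none called by edgeR or DESeq2 and 0 at an unadjusted p under 0.05.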

Additional observations from a re-analysis of the deposited data

Results flagged for a closer look

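Within the 4 *B4galt1* flox/flox livers, 47 genes named above were examined for a liver far from the other 3, by Dixon's ratio of a gap to the range, which flags about 1 in 20 groups by chance. It flagged 1 gene. *Plcb4*, a phospholipase Cβ, was at 5.83 CPM in control replicate 3 and at 3.67 to 4.02 CPM in the other 3 controls. None of the 9 α subunit genes was flagged in the controls, and groups of 3 were not examined.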

How the results depend on the processing

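*Gna12* had log2 fold changes from -3.28 to -2.84 over 17 alternatives, and from -3.26 to -2.91 when a mouse was left out. Of the 8 relatives, 7 kept their sign under all alternatives. *Gna14* changed sign with limma on log2(FPKM + 1) (-0.0036) and log2(FPKM + 0.1) (-0.031) and with the block (-0.29), and ranged from -0.61 to 0.54 when a mouse was left out. Relatives called lower stayed at 0 in 17 of 18 alternatives and were 2 of 7 tested (*Gna13* at -0.62 and *Gnai2* at -0.60) with limma on log2(FPKM + 1) after an FPKM minimum of 1 in 3 mice. There 15.9% of all genes were called lower, and the median of all genes was -0.14 against 0.02. The 1 relative called higher, *Gnas*, became 0 without a filter on low counts, in all 3 limma fits and with the replicate number as a block, and ranged from 0 to 1 when a mouse was left out.

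Called genes of the pathway lists, 5 lower and 12 higher, numbered 2 and 1 with limma on log2(FPKM + 1), 3 and 3 on log2(FPKM + 0.1), 2 and 6 with the block, and 7 and 6 of 74 tested with the FPKM minimum. Leaving out a mouse gave 1 to 6 lower and 3 to 11 higher, with the fewest (1 and 3) without control replicate 2. The cause of these changes was not tested. Equal replicate numbers do not pair the mice (correlations of their deviations -0.34, -0.03 and 0.08). Over all genes 1189 were called lower and 1215 higher, against 615 and 652 with the block, 474 and 411 without control replicate 2, 707 and 698 without control replicate 3, 804 and 748 without control replicate 4, and 593 and 606 without replicate 2 labelled *B4galt1* hep-/-. The 3 limma fits called 242, 361 and 561 genes higher, 18.2%, 21% and 24.5% of their calls, where edgeR had 50.5%. *Gna14* had 25 to 137 counts per liver and *Gnai1* 92 to 401.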
